A study of Mus musculus with 2 samples.

Results

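The genes described here build and run the mitotic apparatus: mitotic kinases, the spindle checkpoint, the kinetochore, kinesin motors, condensin and other chromosome proteins, and the proteins of the passenger complex, spindle assembly and cytokinesis. The list held 43 mouse genes, taken by symbol and chosen with earlier results of these data known. A gene was measured where a probe of the array was annotated to its symbol and no other and had a value on both arrays, which gave 39 members of 14150 genes measured in all. There were 38 members with 1 probe and 1, Smc2, with 2 probes, whose values were averaged. Spc25, Smc4, Ncaph and Tacc3 were not analysed here.

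The arrays compare CD8+ T cells of the pmel transgenic mouse, whose receptor recognises a peptide of the melanocyte protein gp100. Effector cells taken after 1 stimulation in vitro filled channel 1 and effector cells taken after 2 stimulations filled channel 2 of each array, as total RNA. A first array and its repeat make up the single group (n = 2), and the labels name neither the number of mice nor whether a new culture was grown for the repeat. Errors and p-values therefore measure the spread between these arrays, which may be technical. Each value is a log ratio of both channels, read here as log2, and each array was centred close to 0. The labels do not fix the numerator. Since they name the cells after 1 stimulation first, a negative value probably means more RNA after 2 stimulations, and the opposite order would turn every sign. A natural log base is also possible, and each fold below would then be too small. Ratios carry no level, so neither the abundance of a gene nor the presence of a cell type could be checked, and in a cell population a change in the share of dividing cells and a change in RNA per cell cannot be told apart.

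Mitosis is driven by CDK1 with its cyclins, and entry is enforced by Polo-like and Aurora kinases. Condensin and topoisomerase II fold the chromosomes, the kinetochore attaches them to spindle microtubules, and the spindle checkpoint holds back CDC20 and the anaphase-promoting complex until attachment is complete. Transcripts of these genes accumulate late in the cell cycle and are low in resting lymphocytes, so they serve as the usual marker of proliferation. Antigen-stimulated CD8+ T cells are among the fastest dividing cells of the adult mouse.

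Mitosis genes lay far on the negative side of the ratio. Of 39 genes, 32 were negative on both arrays, against 33.6% of all genes, and 1 was positive on both, against 29.6% of all genes. The other 6 had opposite signs on the 2 arrays. The median of the mean log2 ratio was -0.91, with -1.03 on array 1 and -0.76 on array 2, while the median of all genes was -0.02. At least 2-fold on both arrays, 9 members were negative, against 0.721% of all genes, and 0 were positive, against 0.233%. These 9 were Lmnb1, Cenpk, Bub1, Mki67, Cenph, Ndc80, Incenp, Ncapg and Birc5. At 1.5-fold the negative count was 20, against 3% of all genes. Among the 142 genes that make up the lowest 1% by mean there were 13 mitosis genes, and 25 lay among the 712 genes that make up the lowest 5.03%.

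No single probe passed correction. limma's moderated test called 0 of the 40 member probes at an adjusted p of 0.05, and it called 0% of the 21427 probes tested. The adjusted p of member probes ran from 0.162 to 0.882. At an unadjusted p under 0.05, 30 of the 40 member probes were negative, against 8% of all probes, and 0 were positive, against 6.87%. With 2 arrays the 95% confidence interval of a member probe's mean reached a median of 0.445 to either side. It ended below 0 for the same 30 probes, which restates their unadjusted p and adds nothing to it. The genes are therefore described by the size of the ratio and by how closely the arrays agreed, and none is called changed.

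**Figure D1:**
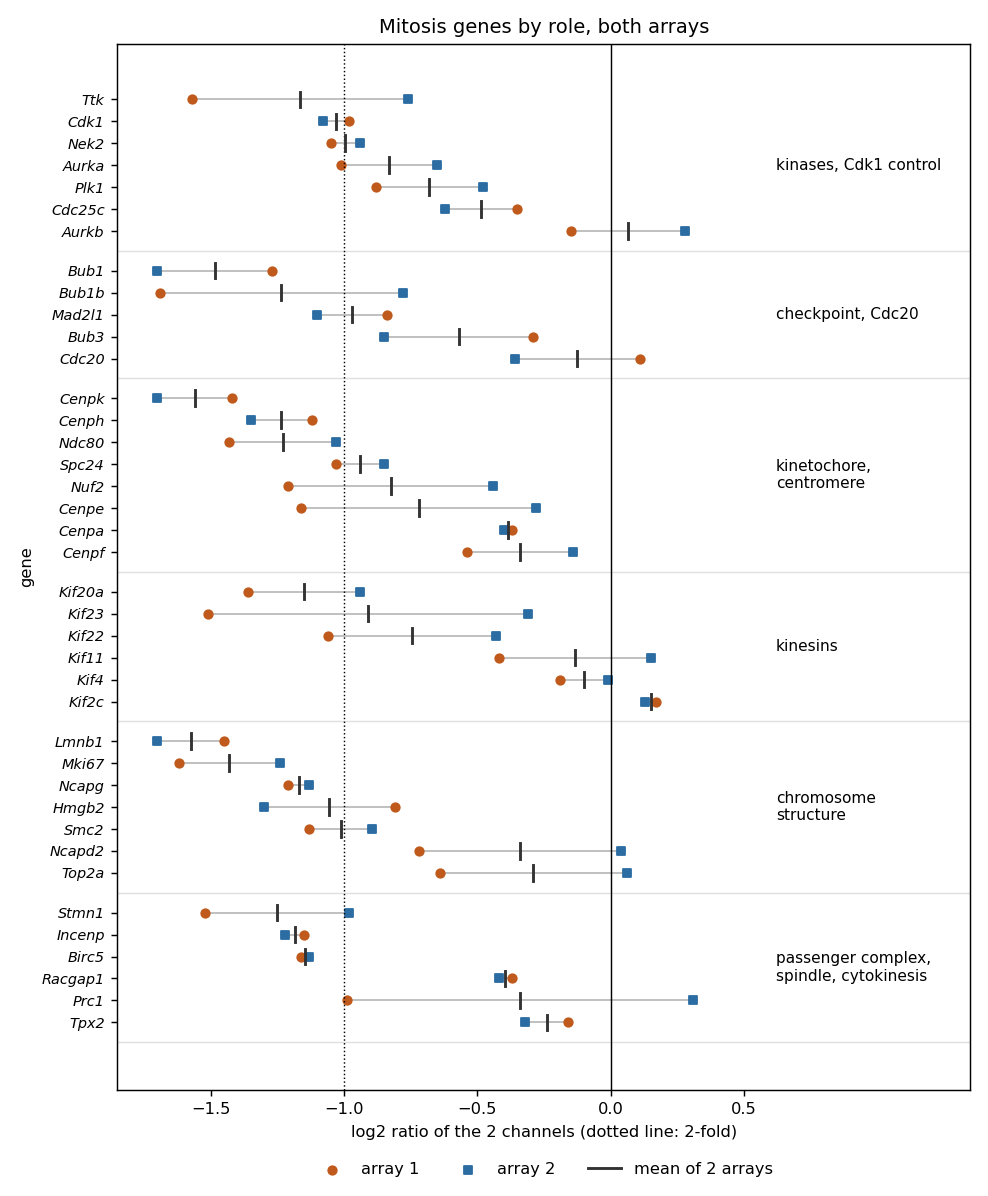
Log2 ratio of both channels for each of the 39 mitosis genes (rows, grouped by role) on array 1 (circles) and array 2 (squares), with the mean as a vertical tick, the solid line at 0 and the dotted line at a 2-fold difference on the negative side. In 32 genes both points lie left of 0, and Kif2c is the single gene with both points to the right.

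Many late cell cycle genes carry in their promoters a CHR element (cell cycle genes homology region), bound by complexes built on MuvB, and CCAAT boxes, bound by NF-Y. Member promoters are described as background, and no link between motifs and ratios was tested. RefSeq promoters (build GRCm38.p6, 250 bases before to 50 after the gene start) were found for 34 of the 43 members. The CHR element was searched as TTTGAA, the CCAAT box as CCAAT, and the E2F site as any of TTTGGCGC, TTTCCCGC, TTTCGCGC and TTTGCCGC, all on both strands. No motif contains another, and in the member promoters 0 matches of different motifs shared bases. A CHR match was present in 24 of 34 members (70.6%), against 20.2% of 27025 genes in the promoter table and 15.9% of the 11127 genes measured on both arrays. A CCAAT match was present in 27 members (79.4%), against 41.1% and 42.1%. Both together were present in 22 members (64.7%), against 7.97% and 6.42%. An E2F match was present in 3 members (8.82%), against 2.61% and 3.73%. These are counts of letters in a window and do not show binding.

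Among members at least 2-fold on both arrays, no promoter was found for Lmnb1 and Incenp. The promoters of all others are printed below, the 6 with a match first and then that of Birc5, which held none. Capitals mark CHR, CCAAT and E2F matches on either strand, and the strand named is that of the gene. Cenpk has 3 promoters in the table, and the one with the most matches is shown.

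Mki67, chr7:135716330-135716629, minus strand: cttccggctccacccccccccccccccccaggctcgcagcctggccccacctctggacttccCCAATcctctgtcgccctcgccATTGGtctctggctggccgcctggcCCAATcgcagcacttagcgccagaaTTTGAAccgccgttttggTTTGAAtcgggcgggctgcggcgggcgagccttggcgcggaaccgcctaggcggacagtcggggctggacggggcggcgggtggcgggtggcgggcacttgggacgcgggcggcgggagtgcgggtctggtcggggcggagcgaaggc
Ncapg, chr5:45669675-45669974, plus strand: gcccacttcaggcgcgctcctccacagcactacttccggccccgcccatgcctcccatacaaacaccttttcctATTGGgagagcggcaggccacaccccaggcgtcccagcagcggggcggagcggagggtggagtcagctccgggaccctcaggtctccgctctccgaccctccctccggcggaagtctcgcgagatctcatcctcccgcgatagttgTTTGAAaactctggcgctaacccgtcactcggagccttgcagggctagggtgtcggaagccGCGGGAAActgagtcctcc
Bub1, chr2:127831810-127832109, minus strand: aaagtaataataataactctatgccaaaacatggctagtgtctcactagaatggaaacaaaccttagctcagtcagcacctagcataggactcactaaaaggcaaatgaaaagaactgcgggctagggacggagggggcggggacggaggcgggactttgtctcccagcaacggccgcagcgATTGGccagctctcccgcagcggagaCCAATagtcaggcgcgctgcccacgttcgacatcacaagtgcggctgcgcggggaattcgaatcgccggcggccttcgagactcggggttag
Cenpk, chr13:104228716-104229015, plus strand: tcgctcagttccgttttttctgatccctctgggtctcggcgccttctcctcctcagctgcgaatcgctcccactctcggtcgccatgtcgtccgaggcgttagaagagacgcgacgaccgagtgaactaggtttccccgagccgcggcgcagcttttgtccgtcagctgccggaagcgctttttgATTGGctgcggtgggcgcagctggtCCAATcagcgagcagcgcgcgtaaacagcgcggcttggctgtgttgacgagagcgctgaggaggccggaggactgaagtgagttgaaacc
Cenph, chr13:100775850-100776149, minus strand: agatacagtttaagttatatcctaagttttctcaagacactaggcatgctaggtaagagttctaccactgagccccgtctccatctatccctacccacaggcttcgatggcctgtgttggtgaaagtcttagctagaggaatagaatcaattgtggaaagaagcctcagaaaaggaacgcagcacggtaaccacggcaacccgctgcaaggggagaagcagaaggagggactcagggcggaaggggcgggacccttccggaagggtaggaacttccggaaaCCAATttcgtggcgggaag
Ndc80, chr17:71526808-71527107, minus strand: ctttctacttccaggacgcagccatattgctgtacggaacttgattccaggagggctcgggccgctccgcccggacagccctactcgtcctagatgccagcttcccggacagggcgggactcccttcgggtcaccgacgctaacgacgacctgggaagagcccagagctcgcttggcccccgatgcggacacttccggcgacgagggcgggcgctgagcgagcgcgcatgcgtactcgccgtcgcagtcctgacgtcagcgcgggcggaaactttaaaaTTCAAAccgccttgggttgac
Birc5, chr11:117848987-117849286, plus strand: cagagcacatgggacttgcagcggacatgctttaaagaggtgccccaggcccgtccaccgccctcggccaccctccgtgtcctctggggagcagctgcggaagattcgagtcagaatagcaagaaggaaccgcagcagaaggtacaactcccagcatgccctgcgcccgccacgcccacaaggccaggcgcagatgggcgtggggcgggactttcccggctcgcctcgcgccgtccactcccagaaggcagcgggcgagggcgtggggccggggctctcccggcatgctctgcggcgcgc

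Mki67 held 2 CHR and 3 CCAAT matches, Ncapg 1 of each of the 3 motifs, Bub1 and Cenpk 2 CCAAT matches each and no CHR match, Cenph 1 CCAAT match and Ndc80 1 CHR match. Bub1 does hold TTCGAA, a second CHR spelling, which was left out of these counts and is unmarked here and in Top2a. Of 3 further promoters, chosen after the values were seen, Cdk1 lay close to the 2-fold line, whereas Cdc20 and Top2a had opposite signs on the 2 arrays. All 3 held both motifs, as follows.

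Cdk1, chr10:69352863-69353162, minus strand: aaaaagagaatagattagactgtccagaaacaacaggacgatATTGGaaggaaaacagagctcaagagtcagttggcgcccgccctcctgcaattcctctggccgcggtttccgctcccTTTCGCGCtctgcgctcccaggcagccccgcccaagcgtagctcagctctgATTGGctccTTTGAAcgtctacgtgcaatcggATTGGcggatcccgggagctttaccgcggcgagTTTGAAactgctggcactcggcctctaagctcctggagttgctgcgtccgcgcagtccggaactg
Cdc20, chr4:118437294-118437593, minus strand: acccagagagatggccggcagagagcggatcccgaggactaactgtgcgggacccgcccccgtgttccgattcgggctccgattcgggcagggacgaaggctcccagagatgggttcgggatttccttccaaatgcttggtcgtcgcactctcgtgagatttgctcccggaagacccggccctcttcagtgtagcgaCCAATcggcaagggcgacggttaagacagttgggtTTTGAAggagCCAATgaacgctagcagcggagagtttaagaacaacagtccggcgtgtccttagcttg
Top2a, chr11:99024140-99024439, minus strand: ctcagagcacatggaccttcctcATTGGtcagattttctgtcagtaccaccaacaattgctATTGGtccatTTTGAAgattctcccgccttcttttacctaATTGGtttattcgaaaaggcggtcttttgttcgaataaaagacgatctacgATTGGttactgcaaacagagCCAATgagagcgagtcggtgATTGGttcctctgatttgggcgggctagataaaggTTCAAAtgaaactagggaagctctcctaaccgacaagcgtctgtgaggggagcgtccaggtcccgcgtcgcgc

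Top2a had the most matches of any member promoter, 2 CHR and 6 CCAAT matches, but its ratio was among the smaller ones. Motifs were set beside ratios for the 31 measured members with a promoter. The 21 genes with CHR and CCAAT matches had a median log2 ratio of -0.68, with means from -1.43 to -0.10. The 7 genes with only 1 of these motifs had a median of -1.23, and the 3 with neither, Birc5, Mad2l1 and Nuf2, had a median of -0.97. The ranges overlapped. In 17 genes a CHR and a CCAAT match started within 60 bases of each other, a distance set after the positions were seen. This close pair was present in 52.9% of all 34 members, against 3.91% of genes in the table. The 5 members of opposite signs that have a promoter in the table (Cdc20, Kif11, Ncapd2, Top2a and Prc1) all held a close pair, while 13 of the 14 genes without one were negative on both arrays. These splits were made after the values were seen and were not tested.

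**Figure D2:**
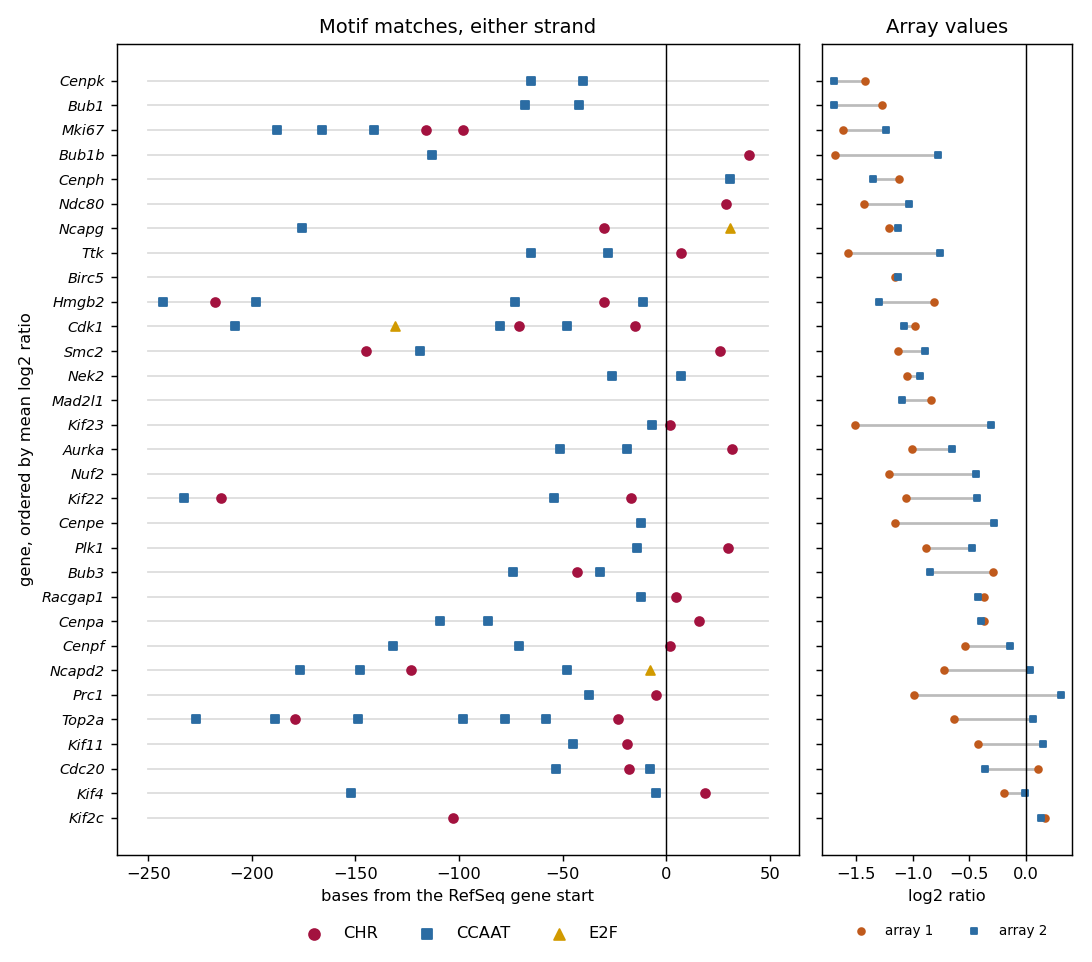
Positions of CHR (circles), CCAAT (squares) and E2F (triangles) matches on either strand, in bases from the RefSeq gene start, for the 31 measured members with a promoter, ordered by mean log2 ratio from the lowest, beside each gene's log2 ratio on array 1 (circles) and array 2 (squares). CHR matches gather near the start, with a median position of -18 over 29 matches, and CCAAT matches lie farther upstream, with a median of -68 over 51 matches.

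The mitotic kinases and the CDK1 activator Cdc25c had a median of -0.83 over 7 genes, 6 of them negative on both arrays. Cdk1, the kinase that drives entry into mitosis, read -0.98 and -1.08 on arrays 1 and 2, and its promoter is printed above. Nek2, a kinase of centrosome separation, was as close between arrays, at -1.05 and -0.94. Ttk, the kinase (MPS1) that starts checkpoint signalling, read -1.57 and -0.76. Its arrays differed by more than those of any other gene of this group, so its mean of -1.17 ± 0.57 (SD, n = 2) is the least certain of the group. Aurka, the Aurora kinase of spindle poles, read -1.01 and -0.65, and Plk1, the Polo-like kinase of mitotic entry, -0.88 and -0.48. Cdc25c, the phosphatase that activates CDK1, read -0.35 and -0.62. Aurkb, the Aurora kinase of the chromosomal passenger complex, stood apart from the other kinases at -0.15 and 0.28. Its limma interval ran from -0.39 to 0.52 and included 0, and whether Aurkb differs from the other kinases was not tested.

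Spindle checkpoint genes had a median of -0.97 over 5 genes, 4 of them negative on both arrays. Bub1, a checkpoint kinase at the kinetochore, read -1.27 and -1.70, a mean of -1.49 ± 0.30 (SD, n = 2), or a 2.80-fold difference. Bub1b, which encodes the related protein BUBR1, read -1.69 and -0.78, so the arrays placed it on either side of the 2-fold line. Mad2l1, whose protein MAD2 binds and inhibits CDC20, read -0.84 and -1.10. Bub3, the partner that brings BUB1 and BUBR1 to kinetochores, was nearer 0 at -0.29 and -0.85. Cdc20, the target of the checkpoint and activator of the anaphase-promoting complex, read 0.11 and -0.36. BUBR1, BUB3, MAD2 and CDC20 form the mitotic checkpoint complex, and the means of their genes spanned 1.11 on the log2 scale. The largest SD between arrays among them was 0.64. A range of several means set beside 1 SD is no test, and whether these genes differ was not tested. The checkpoint genes were the group in which array 2 more often gave the lower value, in 4 of 5 genes.

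All 8 measured kinetochore and centromere genes had negative ratios on both arrays, and their median was -0.88. Cenpk and Cenph encode subunits of the inner kinetochore network on CENP-A chromatin. Cenpk read -1.42 and -1.70, a mean of -1.56 ± 0.20 (SD, n = 2) and a 2.95-fold difference, the lowest mean of the group. Cenph read -1.12 and -1.35. Of the NDC80 complex, which grips microtubule ends, Ndc80 read -1.43 and -1.03, Nuf2 -1.21 and -0.44 and Spc24 -1.03 and -0.85. The means of these 3 subunits spanned 0.41, less than the largest SD between arrays among them (0.54). Differences between the subunits were not tested. Cenpe, the kinesin-like motor of the outer kinetochore, read -1.16 and -0.28. Cenpf, a large outer kinetochore protein, read -0.54 and -0.14. Cenpa, the histone H3 variant that marks centromeres, agreed closely between arrays at -0.37 and -0.40, nearer 0 than the subunits Cenpk and Cenph that sit on it.

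Kinesins were the role group nearest 0, with a median of -0.44 over 6 genes (-0.74 and -0.16 on arrays 1 and 2). They divided into 3 genes well on the negative side and 3 close to 0. Kif20a, a motor of the central spindle, read -1.36 and -0.94. Kif23, a central spindle motor that forms centralspindlin with RACGAP1, read -1.51 and -0.31, and Kif22, a chromosome-arm motor, -1.06 and -0.43. The 3 genes near 0 were Kif11, Kif4 and Kif2c. Kif11, the motor that pushes spindle poles apart, read -0.42 and 0.15. Kif4, a chromosome-bound motor, read -0.19 and -0.01. Kif2c, a microtubule depolymerase of the centromere, was the only member positive on both arrays, at 0.17 and 0.13, and its limma interval of -0.22 to 0.52 included 0. No kinesin was 2-fold on both arrays, while 3 were on array 1.

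Genes of chromosome structure had the lowest median of the role groups, -1.06 over 7 genes, with 5 negative on both arrays. Lmnb1, which encodes the nuclear lamina protein lamin B1, read -1.45 and -1.70. Its mean of -1.58 ± 0.18 (SD, n = 2), a 2.98-fold difference, was the lowest of all members but was not separated from Cenpk or Bub1 beyond their SDs. Mki67, the gene of the Ki-67 antigen that coats mitotic chromosomes, read -1.62 and -1.24. Hmgb2, a DNA-bending chromatin protein, read -0.81 and -1.30. Condensin, the ring that compacts chromosomes, had 3 measured subunits. Ncapg agreed between arrays at -1.21 and -1.13. Both Smc2 probes were negative on both arrays, 1 at -1.16 and -0.65 and the other at -1.10 and -1.14. Ncapd2, the third, differed at -0.72 and 0.04, so the condensin genes did not read alike. Top2a, topoisomerase II alpha, likewise had opposite signs, with -0.64 and 0.06.

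The last role group, the passenger complex, spindle assembly and cytokinesis, had a median of -0.77 over 6 genes, 5 of them negative on both arrays. Incenp, the scaffold of the passenger complex, read -1.15 and -1.22, and Birc5, its subunit survivin, -1.16 and -1.13. These pairs of values were among the closest of all members, as were those of Cenpa, Racgap1 and Kif2c, which lay nearer 0. Their kinase partner Aurkb lay near 0, as given above. With Cdca8, the complex's borealin subunit (-1.52 and -0.92), the means of the 4 genes spanned 1.29. The largest SD between arrays among them was 0.42, and whether these genes differ was not tested. Aurkb rests on 1 probe. Stmn1, a microtubule-destabilising protein, read -1.52 and -0.98. Prc1, which bundles central spindle microtubules, differed most between arrays of all members, at -0.99 and 0.31. Racgap1, the centralspindlin partner of Kif23, read -0.37 and -0.42, and Tpx2, the activator of Aurora A at the spindle, -0.16 and -0.32.

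**Figure D3:**
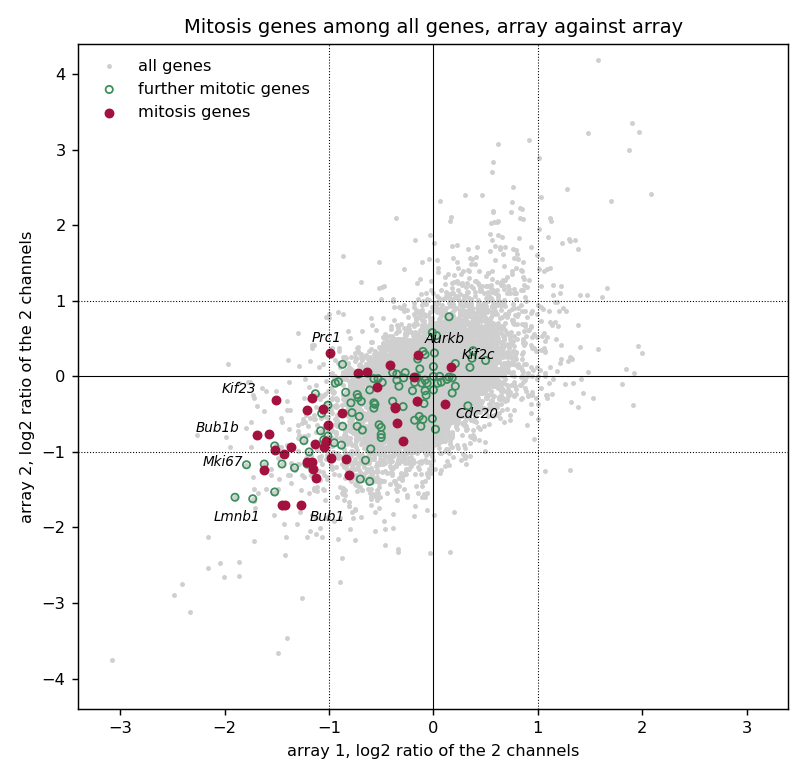
Log2 ratio on array 1 (horizontal) against array 2 (vertical) for all 14150 genes (grey), 96 further mitotic genes (open circles) and the 39 mitosis genes (filled), with solid lines at 0 and dotted lines at 2-fold. The 9 mitosis genes at least 2-fold on both arrays lie in the lower left corner, and Prc1 lies above 0 on array 2.

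The distance of the members from 0 differed between the 2 arrays. At least 2-fold on the negative side there were 21 members on array 1, against 1.56% of all genes, and 12 on array 2, against 3.08%. Both counts include the 9 members that were 2-fold on both arrays. Of the 39 members 24 were lower on array 1, against 47.9% of all genes, with a median difference between arrays of -0.18. Array 1 was lower by over 0.5 for 11 members, against 8.8% of all genes, and array 2 for 1, Bub3, against 9.62%. The 11 were Prc1, Kif23, Bub1b, Cenpe, Ttk, Nuf2, Ncapd2, Top2a, Kif22, Kif11 and Stmn1. The spread over all genes was smaller on array 1 (SD of 0.374) than on array 2 (0.461), so the member median lay farther from 0 on the array with the narrower spread. This did not hold for each gene: 15 members were lower on array 2, among them Lmnb1, Cenpk and Bub1, the lowest by mean. After quantile normalization, which gives both arrays 1 distribution, the median difference was -0.39 and 28 members were lower on array 1. Across the 39 members the arrays correlated with r = 0.599 and rho = 0.577, and across all genes with r = 0.519 and rho = 0.444. These describe genes that share both arrays.

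**Figure D4:**
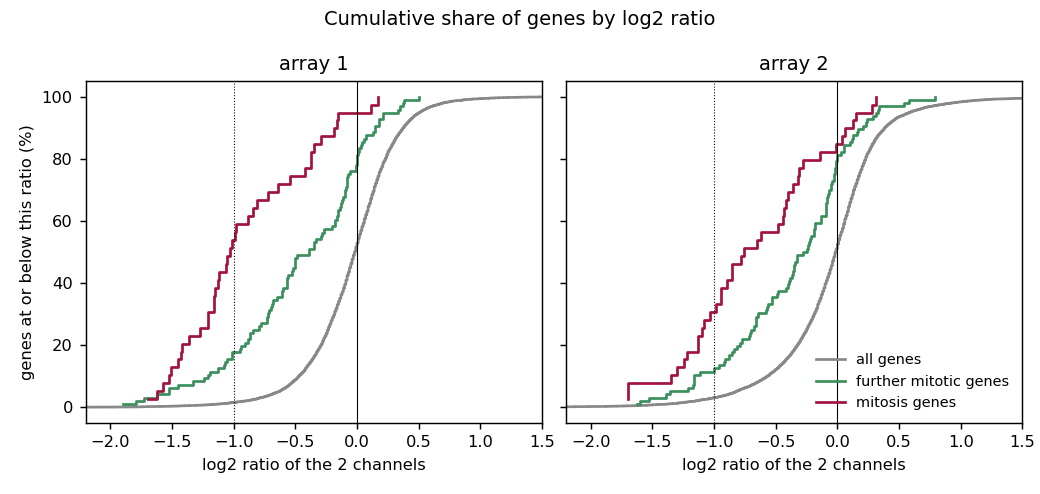
Cumulative percentage of genes at or below each log2 ratio, for array 1 (left) and array 2 (right), for all 14150 genes, 96 further mitotic genes and 39 mitosis genes, with a solid line at 0 and a dotted line at a 2-fold difference. The mitosis genes lie left of the others on both arrays, with medians of -1.03 and -0.76.

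Other genes of mitosis lay on the same side but nearer 0. They were listed by function, also with earlier results of these data known, so they give no independent support. Their median was -0.34 over 96 measured genes. On both arrays, 66 of them had a negative ratio, against 33.6% of all genes, and 8 a positive one, against 29.6%. There were 9 at least 2-fold on both arrays, all negative, against 0.721% of all genes. These were Pbk, a mitotic kinase (-1.90 and -1.60), Cenps, a kinetochore subunit (-1.73 and -1.62), the cyclin genes Ccna2 (-1.52 and -1.53) and Ccnb2 (-1.62 and -1.16), Nusap1, a spindle protein (-1.79 and -1.17), Zwilch, a checkpoint subunit (-1.45 and -1.16), the kinase Melk (-1.33 and -1.21), Tuba1b, an alpha-tubulin (-1.21 and -1.16), and Ska1, which tracks microtubules at the kinetochore (-1.19 and -1.0). Cyclins and their regulators had a median of -0.63 over 13 genes and other kinetochore and checkpoint genes -0.47 over 21. The anaphase-promoting complex with its partners had a median of -0.25 over 13 genes. Within it, Ube2c, the ubiquitin-conjugating enzyme that works with the complex, read -1.05 and -0.84, and Fbxo5, its inhibitor EMI1, -1.08 and -0.72. Pttg1, the gene of securin, read 0.38 and 0.34, on the positive side. Cohesin and its guardians, which hold sister chromatids together, had a median of -0.39 over 11 genes, with Smc1a at 0.37 and 0.24 and Cdca5, the gene of sororin, at -0.95 and -0.88.

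Genes grouped under transcriptional control of mitotic genes had a median of -0.09 over 8 genes. Among them E2f4 read -0.52 and -0.64, Lin9 -0.27 and 0.05 and Lin37 0.03 and 0.54. Foxm1 read -1.07 and -0.49 and Mybl2, the gene of B-MYB, -0.70 and -1.36. Of the NF-Y subunit genes, whose protein binds CCAAT boxes, Nfya read 0.00 on both arrays, Nfyc -0.06 and -0.09 and Nfyb 0.50 and 0.21, on the positive side.

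**Figure D5:**
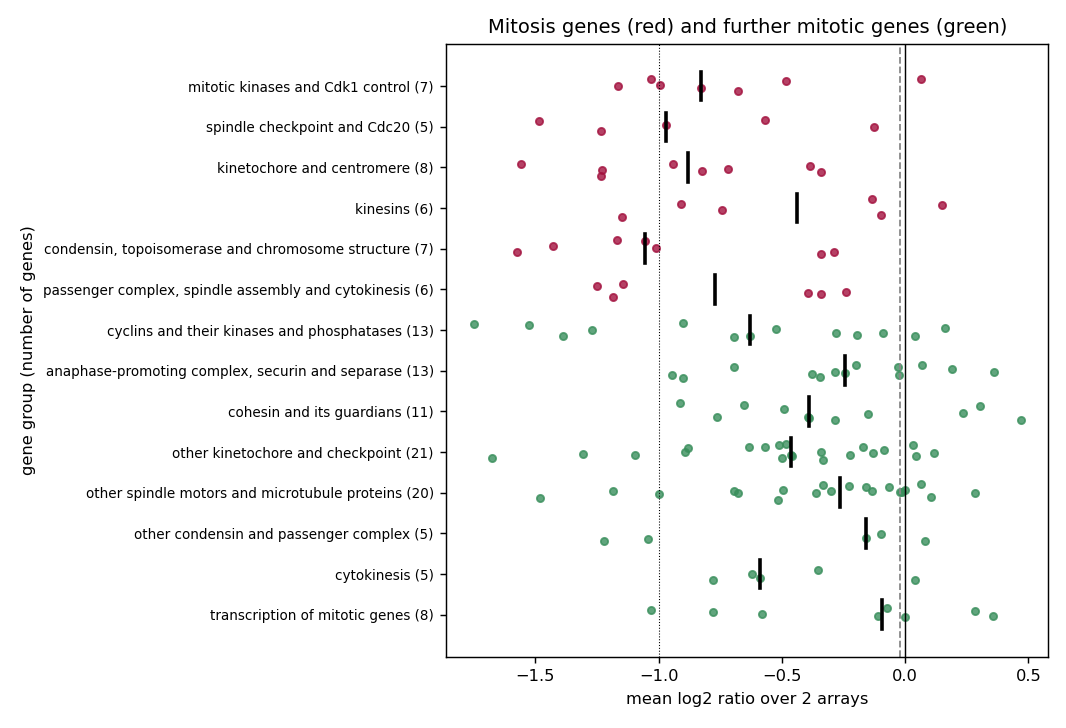
Mean log2 ratio over 2 arrays of each mitosis gene (red, 6 role groups) and each further mitotic gene (green, 8 groups), with group medians as black ticks, a solid line at 0, a dotted line at a 2-fold difference and a dashed line at the median of all genes (-0.02). Medians of the red groups run from -1.06 to -0.44, and those of the green groups from -0.63 to -0.09.

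Cell type markers and probes next in number to those of the members were read beside these values. Markers of CD8 T cells were positive on both arrays in 5 of 7 genes, against 29.6% of all genes, with medians of 0.13 and 0.45 on arrays 1 and 2. B cell markers were positive on both arrays in 12 of 16 genes, against 29.6% of all genes, with medians of 0.26 and 0.86. These medians were opposite in side to those of the mitosis genes. They were larger on array 2, on which the median of the mitosis genes was nearer 0. Not all B cell markers went this way: Blk (-0.05 and -0.04) and Ebf1 (-0.04 and -0.19) were negative on both arrays. Pax5 (0.21 and -0.06) and Cr2 (-0.1 and 0.17) had opposite signs, and Ms4a1 was close to 0 at 0.11 and 0.08. Without class II and immunoglobulin genes, 7 of 11 B cell markers were positive on both arrays, with medians of 0.11 and 0.32. Of the NK cell markers, Ncr1 read -0.27 and -0.25 and Klrb1c -0.77 and -1.88. The 6 myeloid markers had a median of -0.06, and the 2 erythroid ones of 0.01. Their part in the result was not tested. The probes of Birc5 and Lmnb1 carry adjacent numbers, and probes next to any member in number, and in neither mitotic list, were read as well. Positions of probes on the array were not used. The 74 direct neighbours in number had a median of -0.03, and 39.2% were negative on both arrays, against 29.3% of all probes. At least 2-fold negative on both arrays were 4 of the 74 (5.41%) and, within 5 places, 7 of 351 (1.99%), against 0.579% of all probes. The 4 were the probes of Gzma beside Nek2 (-2.16 and -2.53), of Bad beside Lmnb1 (-2.16 and -2.12), of Prf1 beside Bub1 (-1.04 and -1.47) and of Mast2 beside Cenph (-1.17 and -1.05). Their part in the values of these members was not tested.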

How the data were processed

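The table held 1 log ratio per probe and array, taken as log2 as the authors deposited it; base, numerator, scanner, background correction and normalization are not given in the sources used here. Of 21919 probes, 15998 had 1 gene symbol in the platform annotation, 288 several and 5633 none; 21427 had both values. All 40 member probes carried an Entrez ID with the same symbol in RefSeq. Values were averaged over the probes of a gene. limma 3.58.1 (R 4.3.3) fitted the mean of both arrays against 0 (two-sided, moderated variances, 1 residual degree of freedom and 3.43 from the prior). Benjamini-Hochberg adjustment ran over all probes. The fit was tried on simulated data whose changes were larger than any member's mean, so its power at the sizes seen here is unknown. Signal behind each ratio is unknown. Members and lists were chosen with earlier results of these data known. Named genes are members at least 2-fold on both arrays, extremes of each role group, those of mixed sign and, in the end, all members. Nfya, Nfyb, Nfyc, Foxm1, Mybl2, E2f4, Lin9, Lin37, Ube2c, Fbxo5, Pttg1, Smc1a, Cdca5 and Cdca8 were named, and the complexes formed, after values were seen. The B cell markers Blk, Ebf1, Pax5, Cr2 and Ms4a1 were also named after values were seen. Alternatives were other scalings, probe rules, thresholds, priors, promoter windows and each array alone.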

Additional observations from a re-analysis of the deposited data

How the results depend on the processing

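The 32 mitosis genes negative on both arrays stayed 32 under median centring, quantile normalization and 3 other rules for probes, and were 33 and 37 on array 2 and array 1 alone. Since 38 members have 1 probe, the rules for probes could hardly change member counts or means, and their agreement is no support. The median lay between -1.03 and -0.76 over the single arrays. The count of members at least 2-fold on the negative side was 9, with 8 to 10 under those 5 settings, 12 to 21 on a single array, 20 at 1.5-fold, 0 at 3-fold and 19 with the values read as natural logs. The further mitotic genes negative on both arrays numbered 65 to 76. limma called 0 probes at an adjusted p of 0.1, with a robust prior, under both scalings and with 1 mean per gene, and 241 with no moderation, all 241 having equal values on both arrays. At an unadjusted p under 0.05 limma gave 3186 probes. limma could not be fitted to a single array. No member's mean moved by more than its SD between arrays under the 5 settings that kept both arrays. CHR and CCAAT counts were 24 and 27 with 200 bases before the start as well. A second CHR spelling, TTCGAA, gave 25, and the added member was Bub1. No paired analysis was possible because both arrays belong to 1 group. With 2 arrays and no signal over background, precision is low.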
